A study of Mus musculus with 8 samples.

Results

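The genes analysed were those that encode the eukaryotic translation initiation factors (eIFs) of the mouse. They were taken as the autosomal or X-linked protein-coding genes whose symbol begins with Eif followed by a digit from 1 to 6, and 54 of the 55401 counted genes met this rule. Sorted by factor, 5 belonged to eIF1 and eIF1A, 14 to eIF2 with its exchange factor and kinases, 14 to eIF3, 16 to eIF4 and 5 to eIF5, eIF5B, eIF5A and eIF6. Their RNA was compared over 8 libraries of total RNA from mouse embryonic stem cells (ESCs), of which 2 were Control, 3 Zzz3 auxin and 3 Yeats2 auxin. ZZZ3 and YEATS2 belong to the ATAC (Ada-two-A-containing) complex, a histone acetyltransferase that acts as a coactivator of transcription, and the comparisons ask how RNA levels differed once either protein had been removed. In the auxin groups the protein carried an auxin-inducible degron (AID), a tag through which the plant receptor Tir1 sends the protein to degradation, and auxin was given at 500 µM for 24 h. All cells grew in serum with leukaemia inhibitory factor and 2i, and under G418, which selects for Tir1. Neither the line nor the treatment of the Control cells is given by the labels, so that depletion, exposure to auxin and any difference of line cannot be told apart. No label gives a batch, and none says that the replicates were separate cultures, so P values measure the spread between these samples alone.

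Initiation brings the small ribosomal subunit to the start codon of an mRNA. eIF1, eIF1A and the large scaffold eIF3 bind the small subunit, eIF2 carries the initiator tRNA to it, and the eIF4 group recognises the cap, unwinds the 5′ end and joins the mRNA to eIF3. eIF5 then triggers hydrolysis of GTP on eIF2, and eIF5B joins the large subunit. Cells regulate initiation mainly at eIF2, whose phosphorylation blocks the exchange factor eIF2B, and at the cap-binding protein eIF4E, which is held back by the 4E-binding proteins. These controls act on proteins, whereas the values here are RNA levels.

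Reads assigned to genes ranged from 14315120, in Zzz3 auxin replicate 3, to 27884704. The 54 genes together took 1.43 to 1.62% of the assigned reads, and the library of lowest depth had the lowest share. It also stood apart for several members, as described with them. Zzz3 RNA was at 186 and 182 normalised read counts (CPM, with libraries set to 1 scale by edgeR's TMM method, a trimmed mean of log ratios) in Control and at 77.5, 96.9 and 112 in Zzz3 auxin, while Yeats2 RNA was at 90.9 and 95.8 CPM in Control and at 77.3, 103 and 43.7 in Yeats2 auxin. The degron acts on the protein, so these RNA values do not measure depletion. All 12 pluripotency markers examined were detected, with a summed level of 4973 to 5806 CPM over the 8 libraries. By contrast 5 extraembryonic endoderm markers summed to 1.63 CPM at most and 6 fibroblast markers to 8.59 CPM at most. The sum of 5 mesendoderm markers was 12.3 to 23.0 CPM, and that of 4 trophoblast markers was 34.5 to 42.4 CPM. The sum of 5 neuroectoderm markers was 68.9 and 85.4 CPM in Control, 92.5 to 118 in Zzz3 auxin and 84.2 to 103 in Yeats2 auxin. Most of this sum was Nes and Tubb3. Sox1, from the same list, was at 5.77 and 4.49 CPM in Control and at 0.77, 3.55 and 4.68 in Zzz3 auxin. In Yeats2 auxin Sox1 was lower than in Control, at 2.90, 2.03 and 2.77 CPM. The part of these markers in the results was not tested. In such bulk samples fewer cells of a kind and less RNA per cell cannot be told apart.

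None of the 53 members kept by the filter on low counts was called in any comparison, at a Benjamini-Hochberg adjusted P under 0.05 in edgeR's quasi-likelihood test. Among all 17532 genes tested, 0.753% were called in Zzz3 auxin against Control, 0.445% in Yeats2 auxin against Control and 0% in Yeats2 auxin against Zzz3 auxin. The members nearest to a call were Eif4g3 in Yeats2 auxin (adjusted P 0.072), and Eif4ebp1 and Eif2ak2 in Zzz3 auxin (0.079 each). Eif4g3, a scaffold gene of eIF4, and Eif2ak2, the gene of a kinase of eIF2, were lower in both depletions. Eif4ebp1, the gene of an inhibitor of eIF4E, was higher in both. At an unadjusted P under 0.05, 4 members were higher and 12 lower in Zzz3 auxin, where 11.6% and 10.1% of all genes were. In Yeats2 auxin 5 were higher and 4 lower, beside 7.65% and 6.98% of all genes. Most estimates were small. For 47 of 53 members in Zzz3 auxin and 49 of 53 in Yeats2 auxin, the log2 fold change (FC) with 2 standard errors (SE) on either side lay within -1 and 1, and the median SE was 0.14 in both. DESeq2, with which the study analysed its data, called 3 of 51 members in Zzz3 auxin (Eif2ak2, Eif4ebp1 and Eif4g3), where it called 7.81% of all genes with an adjusted P, and Eif4g3 alone of 51 in Yeats2 auxin, where it called 2.75%.

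**Figure D1:**
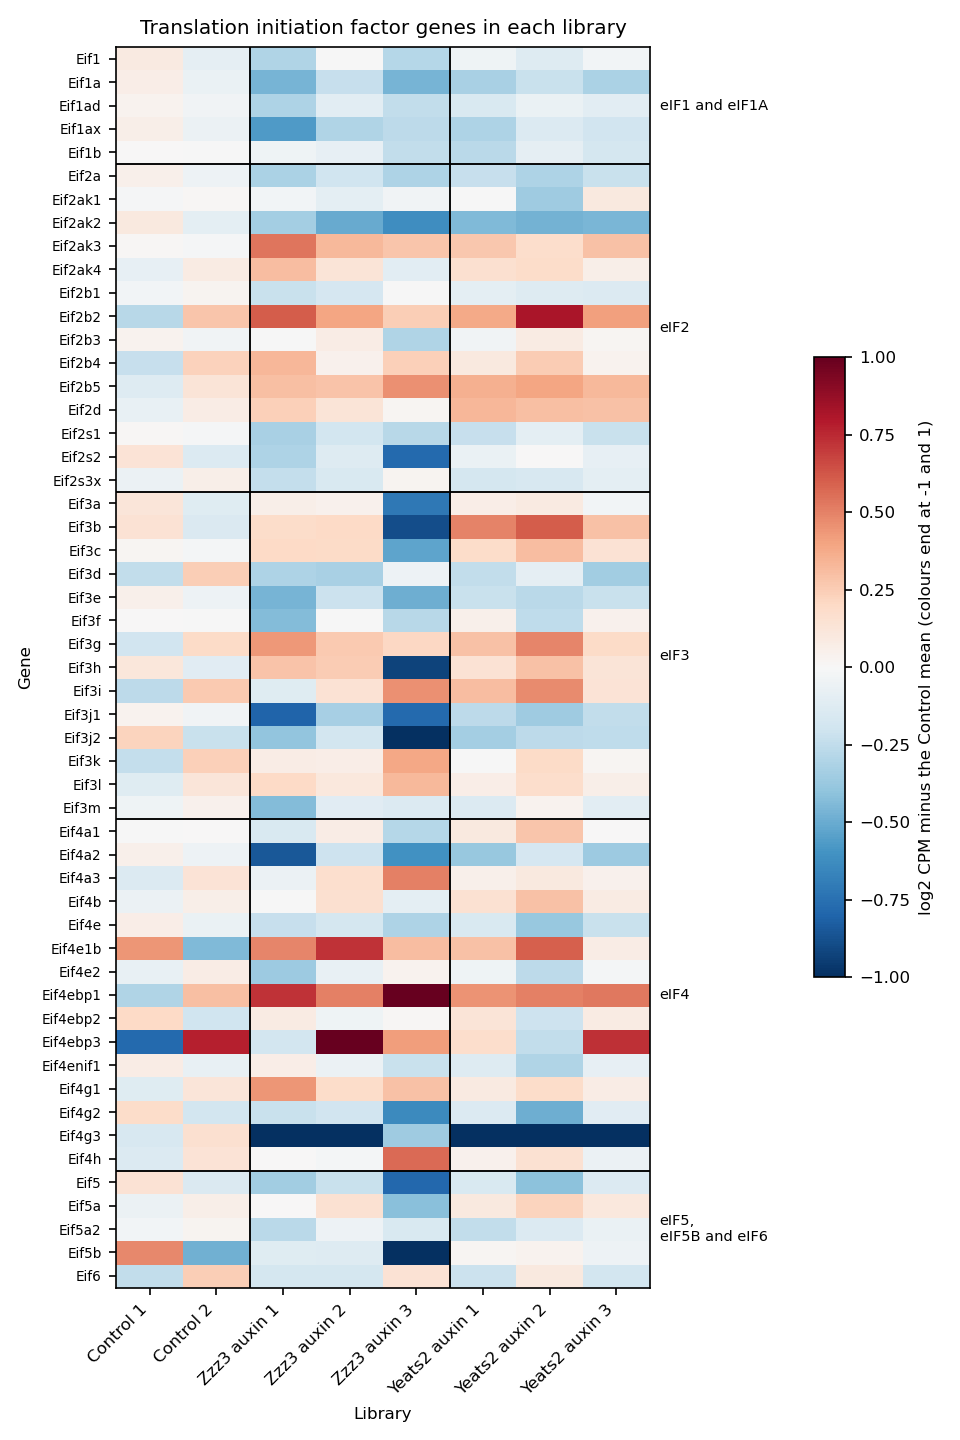
Heat map of log2 CPM minus the Control mean (colour) for the 53 members kept by the filter (rows, grouped by factor) in the 8 libraries (columns). Most rows are pale, Eif4g3 is blue and Eif4ebp1 red in all 6 auxin libraries, and several eIF3 rows are blue in Zzz3 auxin replicate 3 alone.

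Whether the libraries of both groups overlapped was also counted. In Zzz3 auxin, 5 members lay above and 18 below both Control libraries, where 16.8% and 18.9% of all genes did. In Yeats2 auxin, 12 lay above and 17 below, beside 19.3% and 21% of all genes. Both depletions share the 2 Control libraries. Separated from Control in both were 4 members that were higher (Eif2b5, Eif2ak3, Eif3g and Eif4ebp1) and 13 that were lower (Eif1a, Eif1ax, Eif1b, Eif1ad, Eif2a, Eif2ak2, Eif2s1, Eif3j1, Eif3e, Eif4e, Eif4a2, Eif4g3 and Eif5a2). Of all genes tested, 10.5% were higher and 13.2% lower in both by the same count. The median log2 FC over the 53 members was -0.11 in the first and -0.06 in the second comparison with Control, against 0.01 and -0.01 over all genes tested.

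Levels between genes were compared as CPM per kb of exon. In Control, the highest were Eif4b, which stimulates the helicase of eIF4, at 244 ± 14.5 (SD, n = 2), Eif4a2, a gene of that helicase, at 221 ± 11.5, Eif5a at 206 and Eif2b5, the catalytic subunit of eIF2B, at 196. The 12 subunit genes of eIF3 lay within a narrow band, from 51.7 CPM per kb for Eif3e to 161 for Eif3c. By contrast the 3 subunits of eIF2 were spread widely, with Eif2s2 at 146 ± 19.9, Eif2s1 at 70.0 ± 0.83 and Eif2s3x at 7.07 ± 0.39 CPM per kb. Eif2s3x shares 36.2% of its 50-base words with Gm2223 and the pseudogene Eif2s3x-ps1. Reads without a unique alignment were not counted, which could lower its level. In the eIF4G scaffold family, Eif4g2 was at 156 ± 28.5 and Eif4g1 at 97.3 ± 11.8 CPM per kb, and Eif4g3 at 1.48 ± 0.23. Only Eif4e3, a cap-binding relative of eIF4E, failed the filter, with 1 to 5 reads per library. Eif4ebp3, Eif4e1b and Eif3j1 were tested but were below 1 CPM per kb in Control.

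**Figure D2:**
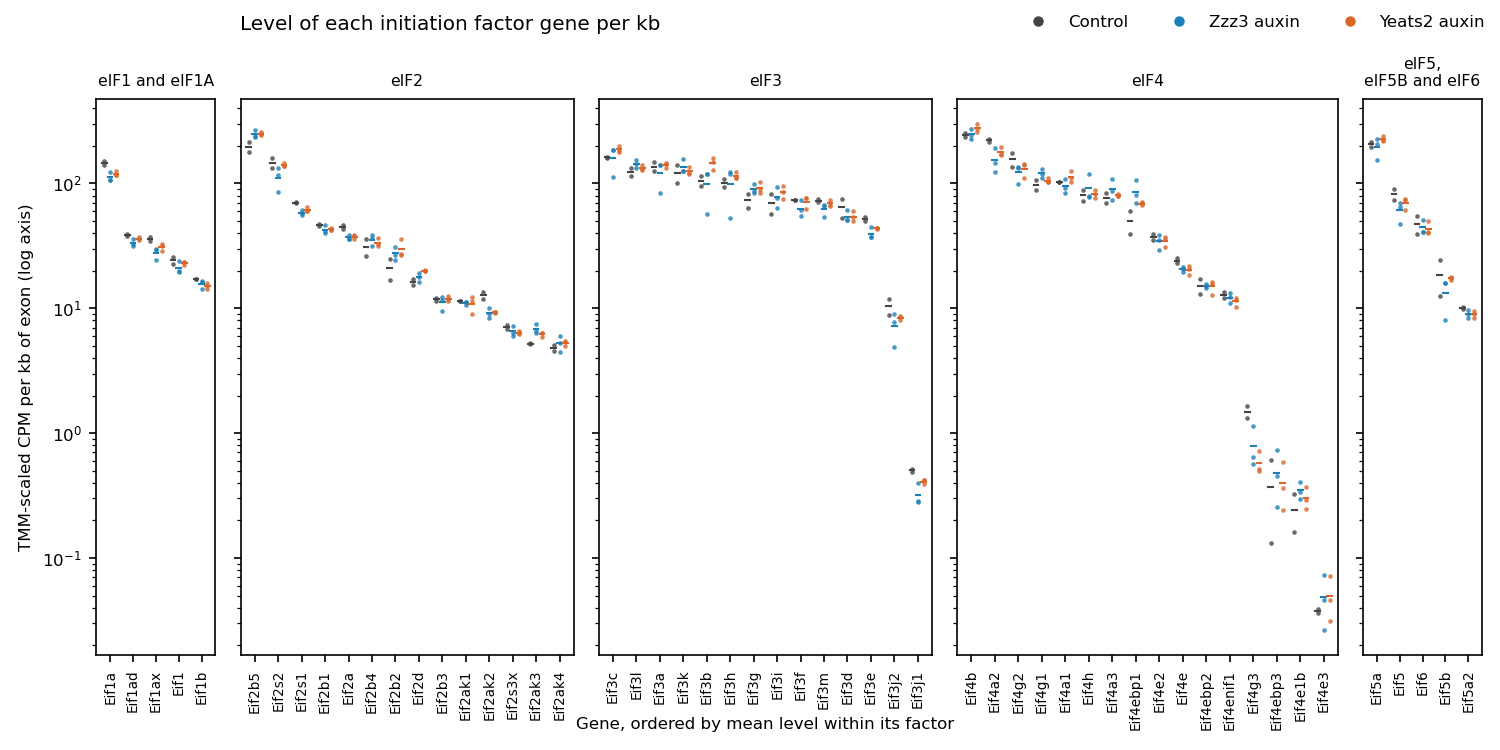
TMM-scaled CPM per kb of exon (log axis) of all 54 members, ordered within each factor, with 1 point per library and a line at each group mean. The eIF3 subunits lie close together while eIF2 and eIF4 span wide ranges, and the groups mostly overlap.

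eIF1 and eIF1A open the ribosome for scanning and guard the choice of start codon. All 5 members of this group had a log2 FC below 0 in both depletions, from -0.38 to -0.12 in Zzz3 auxin and from -0.29 to -0.07 in Yeats2 auxin. Eif1a was at 636 and 582 CPM in Control, at 442, 519 and 441 in Zzz3 auxin and at 486, 521 and 490 in Yeats2 auxin. Every auxin library was below both Control libraries. The log2 FC was -0.38 ± 0.12 (SE) in Zzz3 auxin, with an adjusted P of 0.11, and -0.29 ± 0.12 in Yeats2 auxin, with an adjusted P of 0.28. Its X-linked relative Eif1ax was at 197 and 182 CPM in Control, and at 128, 154 and 158 in Zzz3 auxin, a log2 FC of -0.37 ± 0.12 with an adjusted P of 0.13. Both have an AU-rich transcript, with 39.7% GC for Eif1ax and barely more for Eif1a. After each library was corrected for its trend on GC content and length the 2 values in Zzz3 auxin were -0.15 and -0.15. The other members of the group did not shrink there: Eif1 went from -0.19 to -0.22, Eif1b from -0.12 to -0.23 and Eif1ad from -0.22 to -0.23. The median of the 5 genes was thus -0.22 with and without the correction. For Yeats2 auxin the correction took this median from -0.18 to -0.11. Eif1a lies on chromosome 18 and Eif1ax on X, and they share hardly any 50-base words with other genes, at 4.0% and 0%. Eif1, which does share 31.6% of its words, was at 53.7 and 47.7 CPM in Control and its libraries overlapped those of both depletions.

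eIF2 carries the initiator tRNA as a trimer. Its subunit genes Eif2s1, Eif2s2 and Eif2s3x each had a log2 FC below 0 in both depletions, between -0.39 and -0.12 in Zzz3 auxin and between -0.18 and -0.06 in Yeats2 auxin. With each library corrected for its trend on GC content and length, Eif2s1 was at -0.05 in the first and -0.01 in the second depletion, Eif2s2 at -0.17 and 0.15, and Eif2s3x at 0.03 and -0.04. The shared direction was thus not kept. Eif2s1 encodes the subunit that is phosphorylated when initiation is shut down. It was at 349 and 344 CPM in Control and at 277, 306 and 286 in Zzz3 auxin, and its log2 FC was -0.26 ± 0.11 with an adjusted P of 0.19. Eif2s2 was at 1081 and 891 CPM in Control, at 791, 896 and 573 in Zzz3 auxin and at 936, 984 and 926 in Yeats2 auxin. Its log2 FC in Zzz3 auxin was -0.39 ± 0.17 with an adjusted P of 0.21, and leaving out Zzz3 auxin replicate 3 gave -0.21, while leaving out Control replicate 1 gave -0.24. Over all libraries left out in turn it ranged from -0.53 to -0.21.

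The exchange factor eIF2B reloads eIF2 with GTP. Of its 5 genes, 3 were above 0 in Zzz3 auxin and 4 in Yeats2 auxin, with medians of 0.19 and 0.11, and none was called. Eif2b5 was at 464 and 553 CPM in Control, at 625, 616 and 696 in Zzz3 auxin and at 649, 667 and 634 in Yeats2 auxin. No auxin library reached down to the Control libraries. Its log2 FC was 0.34 ± 0.12 in Zzz3 auxin (adjusted P 0.14) and 0.35 ± 0.12 in Yeats2 auxin (adjusted P 0.21), and these were 0.22 and 0.23 without Control replicate 1. Eif2b2, a regulatory subunit, was at 31.8 and 46.9 CPM in Control and at 50.2, 68.1 and 51.5 in Yeats2 auxin, a log2 FC of 0.52 ± 0.19 with an adjusted P of 0.25, which was 0.27 without Control replicate 1 and 0.83 without Control replicate 2. The Control libraries of Eif2b2 differed from each other about as much as the groups did. After the correction for GC content the median of the 5 genes was -0.02 in Zzz3 auxin and 0.06 in Yeats2 auxin.

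Of the 4 kinases that phosphorylate eIF2, a pair differed in direction. Eif2ak2, which encodes PKR, the kinase activated by double-stranded RNA, was at 69.6 and 61.1 CPM in Control, at 51.5, 45.9 and 42.4 in Zzz3 auxin and at 48.1, 47.0 and 47.4 in Yeats2 auxin. All 6 auxin libraries lay below both Control libraries, and the 3 Yeats2 auxin libraries were nearly equal. Its log2 FC was -0.49 ± 0.12 in Zzz3 auxin, with an adjusted P of 0.079, and -0.46 ± 0.12 in Yeats2 auxin, with an adjusted P of 0.14. DESeq2 gave adjusted P of 0.020 and 0.055. In the edgeR fit corrected for GC content and length the log2 FCs were -0.34 and -0.35, with adjusted P of 0.15 and 0.18. Eif2ak3, which encodes PERK, the kinase of the unfolded protein response, was at 31.7 and 31.2 CPM in Control and at 45.5, 39.4 and 38.1 in Zzz3 auxin, and its log2 FC of 0.38 ± 0.13 had an adjusted P of 0.13. In Yeats2 auxin it was at 37.9, 35.5 and 38.5 CPM, also above both Control libraries. Eif2ak1, which responds to lack of heme, was at 64.7 and 65.4 CPM in Control and at 50.9 to 69.6 in the auxin libraries. Eif2ak4, which responds to lack of amino acids, was at 33.9 and 37.9 CPM in Control and overlapped it in both depletions.

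A further pair of genes encodes proteins that can place an initiator tRNA without eIF2. Eif2a was at 284 and 264 CPM in Control, at 219, 238 and 221 in Zzz3 auxin and at 233, 221 and 235 in Yeats2 auxin, with log2 FCs of -0.28 ± 0.10 (adjusted P 0.16) and -0.25 ± 0.10 (adjusted P 0.30). Its transcript has under 45% GC, and the corrected values were -0.06 and -0.08. Eif2d was at 113 and 126 CPM in Control and at 150, 147 and 146 in Yeats2 auxin, where the log2 FC was 0.31 ± 0.11 with an adjusted P of 0.25. Over all 14 genes of the eIF2 group, the median log2 FC was -0.06 in Zzz3 auxin and -0.02 in Yeats2 auxin.

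**Figure D3:**
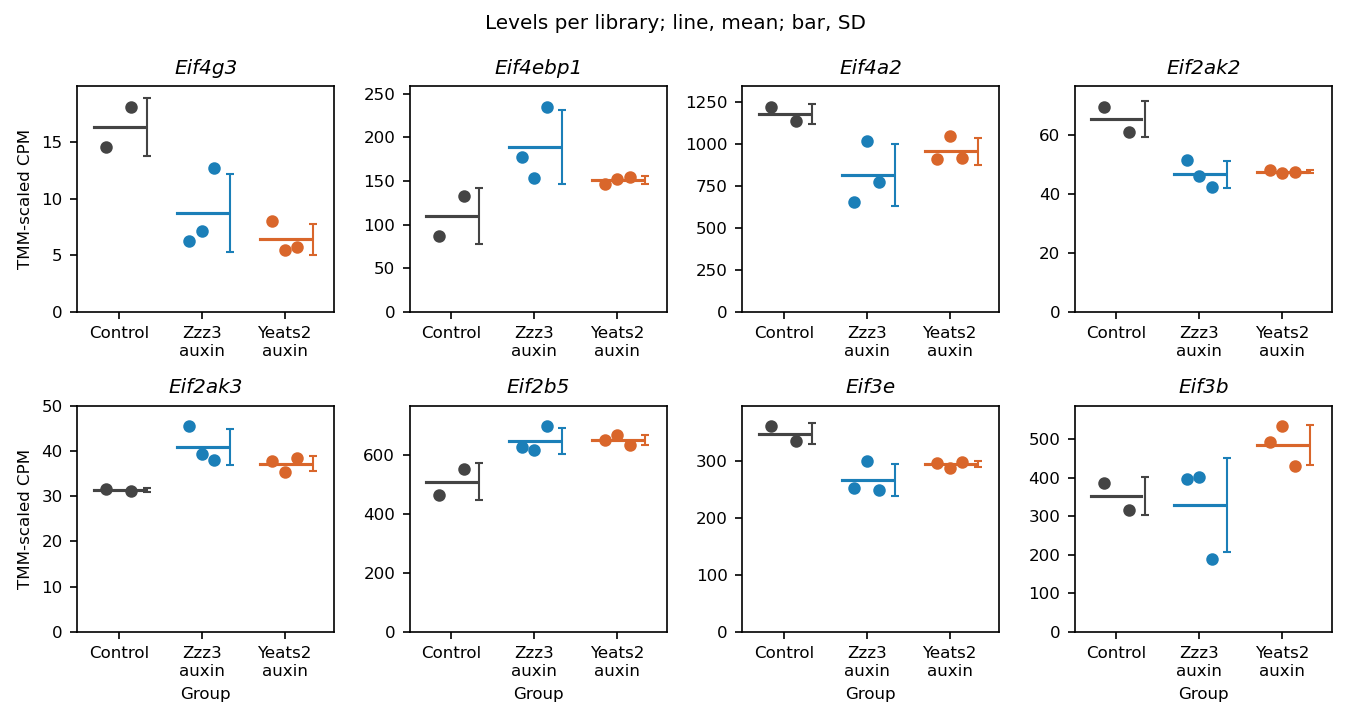
TMM-scaled CPM of 8 members in each library (points), with the group mean (line) and SD (bar), on axes that start at 0 and differ between panels. Eif4g3, Eif4a2, Eif2ak2 and Eif3e are lower and Eif4ebp1, Eif2ak3 and Eif2b5 higher than both Control libraries in all auxin libraries, whereas for Eif3b 1 Zzz3 auxin library lies far below the others.

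eIF3 is the largest initiation factor and bridges the ribosome and the eIF4 group. Its subunits did not move as one. In Zzz3 auxin 4 of the 12 subunit genes were above 0 and 8 below, with log2 FCs from -0.38 to 0.29, and in Yeats2 auxin 8 were above and 4 below, from -0.24 to 0.46. Over all 14 eIF3 genes the median log2 FC was -0.13 in Zzz3 auxin and 0.05 in Yeats2 auxin. The first of these rested on 1 library: the median of the 14 genes was -0.03, 0.05 and -0.38 in the Zzz3 auxin replicates relative to the Control mean, and the median log2 FC without replicate 3 was 0.03. In that library the subunits split. Eif3b was at 397 and 401 CPM in the other Zzz3 auxin replicates and at 189 in replicate 3, Eif3a at 1235 and 1225 against 726, Eif3c at 652 and 648 against 393 and Eif3h at 198 and 194 against 85.4. Eif3i, at 233 and 281 against 349, and Eif3k, at 340 and 338 against 423, were higher there instead. The part of the lower depth of this library in the split was not tested.

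Eif3e, a peripheral subunit gene, was the eIF3 member with the lowest unadjusted P against Control. It was at 361 and 335 CPM in Control, at 252, 299 and 248 in Zzz3 auxin and at 297, 288 and 298 in Yeats2 auxin, below both Control libraries throughout. The log2 FC in Zzz3 auxin was -0.38 ± 0.12 with an adjusted P of 0.11. With 36.2% GC it had the most AU-rich transcript of all members, and its corrected value was -0.15. Eif3g, whose protein binds RNA during scanning, was at 126 and 164 CPM in Control and at 177, 202 and 165 in Yeats2 auxin, a log2 FC of 0.32 ± 0.14 with an adjusted P of 0.34. The higher Control value lay just below the lowest Yeats2 auxin value. Leaving out Control replicate 1 gave 0.14 and leaving out Control replicate 2 gave 0.52, and the corrected value was 0.16. The copies Eif3j1 and Eif3j2 encode a loosely attached factor, and 39.8% and 91.8% of their words occur in other genes, so their counts are uncertain. In Zzz3 auxin their log2 FCs were -0.63 ± 0.24 and -0.51 ± 0.22, with adjusted P of 0.17 and 0.22, at levels of 1.65 to 2.31 and 11.6 to 21.4 CPM. For Eif3j2 the value became -0.28 when Control replicate 1 was left out, and -0.29 when Zzz3 auxin replicate 3 was.

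The eIF4 group held the largest differences. In the scaffold family eIF4G, whose proteins hold eIF4E, the helicase and the poly(A)-binding protein together, Eif4g3 was at 14.6 and 18.1 CPM in Control, at 6.29, 7.18 and 12.7 in Zzz3 auxin and at 8.01, 5.50 and 5.70 in Yeats2 auxin. These values rested on 144 to 400 reads per library. All 6 auxin libraries were below both Control libraries, with Zzz3 auxin replicate 3 closest to them. The log2 FC was -0.92 ± 0.28 in Zzz3 auxin, with an adjusted P of 0.11, and -1.35 ± 0.28 in Yeats2 auxin, with an adjusted P of 0.072. The latter was past 2-fold but not past the threshold of the test. Here the call depended on the analysis: DESeq2 gave adjusted P of 0.030 and 7.8e-04, the fit corrected for GC content gave 0.097 and 0.043 with log2 FCs of -1.04 and -1.43, and without Zzz3 auxin replicate 3 the gene was called by edgeR in both comparisons. The gene spans 137993022 to 138208508 on the plus strand of chromosome 4 (GRCm38), with an overlapping gene on the opposite strand. Whether the counting used strand is not given in the sources used here. Eif4g1, the main scaffold, was at 650 and 771 CPM in Control and at 961, 805 and 869 in Zzz3 auxin, a log2 FC of 0.31 ± 0.12 with an adjusted P of 0.18. It was 0.11 after correction and 0.18 without Control replicate 1. Eif4g2, whose protein lacks the part that binds eIF4E, was at 1794 and 1385 CPM in Control and at 1350, 1382 and 1015 in Zzz3 auxin and did not pass an unadjusted P of 0.05.

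The 4E-binding proteins keep eIF4E from the scaffold until they are phosphorylated. Eif4ebp1 was at 87.2 and 132 CPM in Control, at 178, 153 and 235 in Zzz3 auxin and at 147, 152 and 155 in Yeats2 auxin. Every auxin library exceeded both Control libraries, but the Control libraries were themselves far apart. The log2 FC was 0.78 ± 0.20 in Zzz3 auxin, with an adjusted P of 0.079, and 0.46 ± 0.20 in Yeats2 auxin, with an adjusted P of 0.31. The first value was 0.50 without Control replicate 1 and 1.12 without Control replicate 2, and over the libraries left out in turn the second ranged from 0.19 to 0.80. The correction for GC content left them at 0.83 and 0.48, and DESeq2 gave adjusted P of 0.0089 and 0.25. Eif4ebp2 overlapped its Control libraries in both depletions, at 83.5 to 91.2 CPM in Zzz3 auxin and at 74.4 to 94.0 in Yeats2 auxin. Eif4ebp3 had 2 to 15 reads per library, and 65.5% of its words occur in other genes.

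The helicase genes of the eIF4A family differed from each other. Eif4a2 was at 1222 and 1136 CPM in Control, at 654, 1018 and 774 in Zzz3 auxin and at 907, 1049 and 915 in Yeats2 auxin, below both Control libraries throughout. Its log2 FC in Zzz3 auxin was -0.53 ± 0.17 with an adjusted P of 0.11, and -0.32 after correction. Small nucleolar RNA genes such as Snord2 lie within Eif4a2 on the same strand and Rfc4 overlaps it on the other, so that its count may hold or lose reads of these. Eif4a1, the more general helicase gene, was at 445 and 446 CPM in Control, at 401, 469 and 367 in Zzz3 auxin and at 476, 541 and 447 in Yeats2 auxin. Eif4a3, whose protein belongs to the exon junction complex, was at 148 and 179 CPM in Control and overlapped it in both depletions. Of the cap-binding genes, Eif4e was at 152 and 138 CPM in Control, at 124, 128 and 117 in Zzz3 auxin and at 130, 111 and 124 in Yeats2 auxin, below both Control libraries in all 6, without passing an unadjusted P of 0.05. Eif4e2, whose protein binds the cap and represses translation, overlapped Control, and Eif4e1b, an oocyte gene, was below 1 CPM in every library. Over the 15 eIF4 genes tested, the median log2 FC was 0.0050 in Zzz3 auxin, and in Yeats2 auxin it was 0.04.

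Promoters of the scaffold genes Eif4g3 and Eif4g1, of Eif4e and of Eif2ak2 are shown. Eif4g3 and Eif2ak2 were among the members nearest to a call, and Eif4g1 and Eif4e differed in direction in Zzz3 auxin. The other scaffold gene, Eif4g2, is not shown. Eif4g3 and Eif4e have 2 RefSeq starts each, of which 1 is shown. For Eif4ebp1, Eif3e and Eif1a no window was in the table used, and none is shown. Each window runs from 80 bases before to 25 bases after a RefSeq start in GRCm38.p6, 5′ to 3′ on the strand of the gene, with any CACGTG (the E-box bound by Myc and its relatives) or CCGGAAG (bound by ETS factors, searched on both strands) in capitals.

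Eif4g3, chr4:137993375-137993479, plus strand: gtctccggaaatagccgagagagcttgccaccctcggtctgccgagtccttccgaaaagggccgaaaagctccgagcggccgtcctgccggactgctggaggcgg

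Eif4g1, chr16:20672647-20672751, plus strand: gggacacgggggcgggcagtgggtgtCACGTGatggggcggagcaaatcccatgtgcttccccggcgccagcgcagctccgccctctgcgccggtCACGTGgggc

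Eif4e, chr3:138527188-138527292, plus strand: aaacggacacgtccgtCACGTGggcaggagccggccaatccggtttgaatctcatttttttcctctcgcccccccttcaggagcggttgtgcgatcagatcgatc

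Eif2ak2, chr17:78882548-78882652, minus strand: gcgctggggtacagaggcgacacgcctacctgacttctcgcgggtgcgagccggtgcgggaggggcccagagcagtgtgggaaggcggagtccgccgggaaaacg

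The windows of Eif4g1 and Eif4e hold the E-box and those of Eif4g3 and Eif2ak2 hold neither motif. The 2 scaffold genes shown have more than 65% GC in these windows, at 65.7% for Eif4g3 and 73.3% for Eif4g1. Over the longer windows of the table, from 250 bases before to 50 after a start, the E-box was in 12 of the 55 windows of 42 members (21.8%) and in 7.15% of all 32851 windows, and CCGGAAG was in 19 of 55 (34.5%) and in 8.86% of all. The genes with an E-box were Eif1b, Eif3a, Eif3f, Eif3k, Eif4a1, Eif4e, Eif4g1, Eif4h, Eif5a and Eif5a2, and they include both Eif4g1, above both Control libraries in Zzz3 auxin, and Eif4e, below them. A match describes these letters only and shows no binding.

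The last steps rest on eIF5, which activates the GTPase of eIF2, and eIF5B, which joins the subunits. All 5 genes of this group, with eIF5A and eIF6, were below 0 in Zzz3 auxin, from -0.46 to -0.07. Eif5 was at 619 and 506 CPM in Control, at 440, 480 and 324 in Zzz3 auxin and at 504, 422 and 509 in Yeats2 auxin. Its log2 FC in Zzz3 auxin was -0.44 ± 0.17 with an adjusted P of 0.17, and -0.26 after correction. Leaving out Control replicate 1 gave -0.29, and leaving out Zzz3 auxin replicate 3 gave -0.28. Eif5b was at 237 and 122 CPM in Control, at 156, 155 and 78.3 in Zzz3 auxin and at 172, 174 and 164 in Yeats2 auxin. The Control libraries enclosed all Yeats2 auxin libraries. Eif6, whose protein keeps the subunits apart, overlapped Control in both depletions, at 106 and 149 CPM in Control and at 108 to 139 in the 6 auxin libraries. Its log2 FCs were -0.08 and -0.11, and with the correction for GC content and length they were -0.40 (adjusted P 0.092) and -0.32 (adjusted P 0.22). In the corrected fit it had the lowest unadjusted P of all members in Zzz3 auxin, without being called.

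The direction of a member went with the base composition of its transcript. Of the 18 members with under 45% GC, all 18 had a log2 FC below 0 in Zzz3 auxin and 17 in Yeats2 auxin, with medians of -0.38 and -0.24. Of the 24 members with over 50% GC, 14 and 16 were above 0, with medians of 0.08 and 0.09. Across the 53 members, Spearman's rho of log2 FC with GC content was 0.68 for Zzz3 auxin and 0.58 for Yeats2 auxin. Across 17510 genes it was 0.45 and 0.39. These genes share the same libraries and are not independent replicates. The trend was not particular to the members, as 75.3% and 75.2% of all genes with under 45% GC were below 0 too, with medians of -0.20 and -0.17. Of all genes with over 50% GC, 71.5% and 66.7% were above 0, with medians of 0.20 and 0.14. The Control libraries had it among themselves, since the median of GC-rich minus that of AU-rich members was -0.46 in Control replicate 1 and -0.14 in replicate 2, and between -0.01 and 0.26 in the 6 auxin libraries. With each library corrected for its trend on GC content and exon length, rho fell to 0.18 and 0.05. Of the 18 members with under 45% GC, 15 stayed below 0 in Zzz3 auxin and 13 in Yeats2 auxin, with medians of -0.15 and -0.06. Of all genes with under 45% GC, 51.7% and 51.4% were below 0 after the correction. Of the 24 members with over 50% GC, 10 were above 0 in each depletion. Among all 53 members, 36 and 31 were below 0 in the corrected fit. At an unadjusted P under 0.05, 3 members were then higher and 5 lower in Zzz3 auxin, beside 8.9% and 7.63% of all genes, while 4 were higher and 4 lower in Yeats2 auxin, beside 6.94% and 6.09%.

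**Figure D4:**
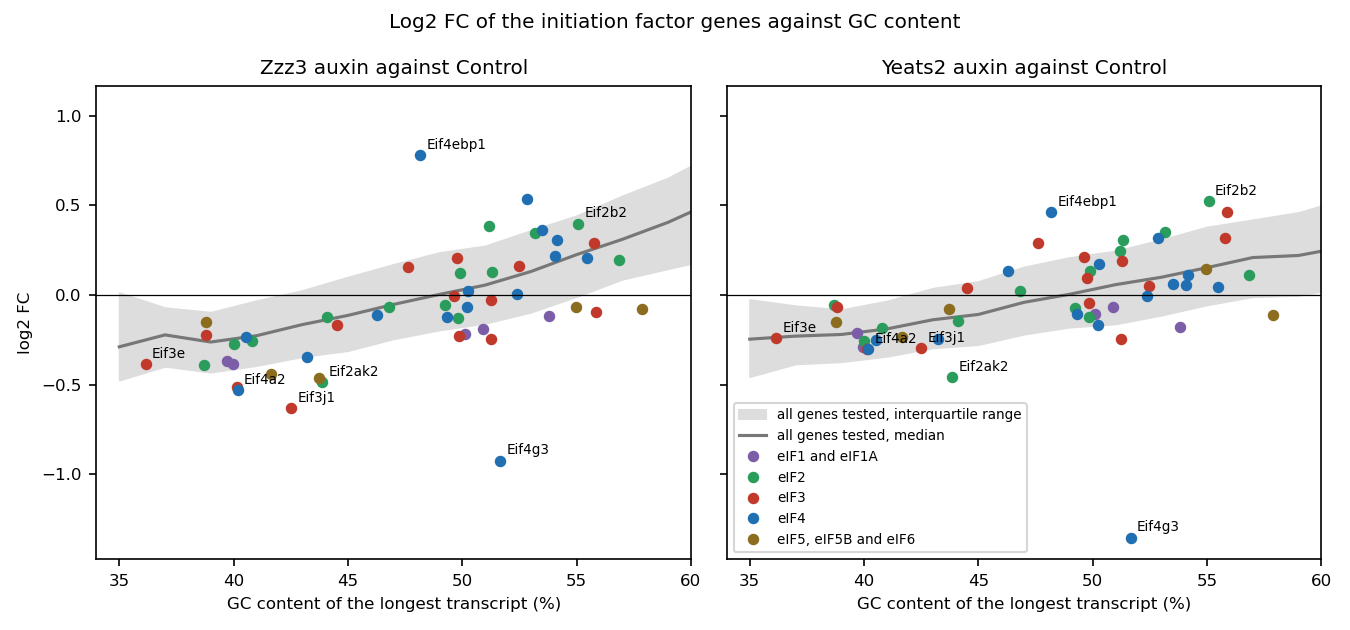
Log2 FC against Control (vertical axis) of the 53 members (points, coloured by factor) by the GC content of their longest transcript (horizontal axis, percent), with the median and interquartile range of all genes tested in steps of GC content (grey). Members under 45% GC lie below 0, with 1 exception in Yeats2 auxin, and mostly follow the grey band. Members outside the interquartile range in both panels include Eif4g3, Eif4ebp1 and Eif2ak2.

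Set directly against each other, the depletions were not told apart for any member. At an unadjusted P under 0.05, 2 members were higher in Yeats2 auxin than in Zzz3 auxin and 0 lower, beside 2.44% and 3.81% of all genes, and none was called by DESeq2 or without the filter, which called 0.00909% and 0.354% of all genes. Eif3b had the larger difference, with 429 to 533 CPM in Yeats2 auxin against 397, 401 and 189 in Zzz3 auxin, a log2 FC of 0.56 ± 0.24 with an adjusted P of 0.78. It fell to 0.28 when Zzz3 auxin replicate 3 was left out. For Eif2s2 the log2 FC was 0.33 ± 0.15, again with an adjusted P of 0.78, and it was 0.17 without the same library. For 51 of 53 members the log2 FC with 2 SE on either side lay within -1 and 1, the exceptions being Eif3b and the weakly expressed Eif4ebp3. Eif4g3 was at -0.43 ± 0.26 in this comparison. The medians were 0.02 for eIF2, 0.17 for eIF3 and -0.10 for eIF4. Without the filter on low counts, 5 of 54 members were called against Control in Zzz3 auxin (Eif2ak2, Eif4a2, Eif4ebp1, Eif4g3 and Eif5), beside 4.67% of all genes, and 2 of 54 in Yeats2 auxin (Eif2b2 and Eif4g3), beside 1.68%.

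Of 39 other genes of the pathway, 38 were tested and none was called in any comparison. At an unadjusted P under 0.05, 5 were higher and 11 lower in Zzz3 auxin, where 11.6% and 10.1% of all genes were, while 1 was higher and 4 lower in Yeats2 auxin, beside 7.65% and 6.98%. The lowest estimate was that of Mcts1, whose protein recycles the small subunit, with log2 FCs of -0.53 and -0.49 and adjusted P of 0.088 and 0.16. Among the poly(A) and cap regulators 8 of 10 were below 0 in each depletion, with medians of -0.29 and -0.18. The group of scanning helicases and recycling factors, which holds Mcts1, had 8 of 9 below 0 in each, with medians of -0.32 and -0.13. Of all 17532 genes tested, 8569 were below 0 in Zzz3 auxin and 8954 in Yeats2 auxin. Paip1, which links the poly(A)-binding protein to eIF4A, was at -0.43 and -0.36, with adjusted P of 0.099 and 0.22, and at -0.26 and -0.19 without Control replicate 1. Among the eIF4E kinases and the genes of mTORC1, its regulators and its substrates, 9 and 8 of 12 were above 0, with medians of 0.18 and 0.10. Of all genes tested, 8963 and 8578 were above 0. The list pools activators and inhibitors of mTORC1, such as Rheb and Tsc2, so the count gives no direction for the pathway. Counts for these lists after the correction for GC content are not given. Downstream of eIF2 phosphorylation, Atf4 did not pass an unadjusted P of 0.05 in either depletion. Trib3, a target of the ATF4 protein, was at 0.49 and 0.52, with adjusted P of 0.15 and 0.23. Ddit3, which had the largest rise of the list in Zzz3 auxin, was at 0.51 and 0.47, with adjusted P of 0.28 and 0.42. Ppp1r15a, from the same group, was at 0.18 and -0.07, so these genes did not share a direction in Yeats2 auxin.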

How the data were processed

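Total RNA of 8 libraries of mouse ESCs was analysed, and groups were taken from the sample titles. The deposited values are raw read counts per gene. Before deposition the authors used cutadapt for trimming, discarded ribosomal RNA reads, aligned the remainder to mm10 with STAR 2.5.3a and counted unique alignments with HTSeq 0.6.1p1 in union mode. Poly(A) RNA is named in the labels, but their protocol depletes ribosomal RNA. GENCODE M21 (GRCm38, the assembly of mm10) gave symbols for 55141 of 55401 identifiers.

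The members, the 39 other pathway genes, the marker lists, the motifs and the alternatives were chosen with earlier results of these data known. Genes kept by filterByExpr (17532) were fitted in R 4.3.3 with edgeR 4.0.16 (TMM scaling, robust quasi-likelihood, 1 mean per group over all 8 libraries, two-sided), and P values were adjusted by Benjamini and Hochberg over all genes tested. Genes below an adjusted P of 0.05 were called. The SE is the log2 FC divided by the square root of F. Named were members with an unadjusted P under 0.01 against Control, those with the highest and lowest log2 FC of each factor, and the eIF2 subunit, eIF4E, eIF4A, eIF4G and 4E-binding protein genes. Further members were named after their values were seen, and log2 FCs of single members are given mainly at an unadjusted P under 0.05. The alternatives were DESeq2 1.42.0, median-of-ratios scaling, other filters, a fit to only the compared groups, protein-coding genes alone, a replicate block, a correction for GC content and exon length (lowess span 0.3) and leaving out each library. GC content is that of the longest transcript, shared words are its 50-base words found in transcripts of other genes, and promoter windows are those of RefSeq, found for 42 of 54 members. The pipeline was tested on simulated data. At this depth counting error is small except for the weakly expressed members, and precision is limited by the few libraries per group. The median SE of the members was 0.14 against Control, with its 2 libraries, and 0.13 between the auxin groups, with 3 each. Whether the replicate numbers pair the samples could not be decided, and the main fit did not use them.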

Additional observations from a re-analysis of the deposited data

How the results depend on the processing

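The count of members called was 0 in every comparison and changed under several alternatives. Against Control, Zzz3 auxin had 3 calls with DESeq2 and 5 without the filter on low counts, and 0 to 3 when single libraries were left out. The 3 were Eif3e, Eif4a2 and Eif4ebp1 without Zzz3 auxin replicate 2, and the only other such call was Eif4g3 without Zzz3 auxin replicate 3. Yeats2 auxin had 1 call with DESeq2, 2 without the filter, 1 with only the 2 groups compared and 1 with the GC and length correction, and 0 to 1 when single libraries were left out (Eif4g3, without Zzz3 auxin replicate 1 or replicate 3). The direct comparison stayed at 0 throughout. With DESeq2, 1079 and 398 genes of all were called against Control, in place of 132 and 78. Over the libraries left out in turn these counts of all genes ran from 0 to 841 and from 0 to 217, with 841 and 293 in the runs that gave the member calls for Zzz3 auxin. The cause of these shifts was not tested.

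The factor medians were near 0 and some moved by more than the spread between libraries. In Zzz3 auxin, the eIF2 median was -0.033 with the GC and length correction and ranged from -0.060 to 0.00046 without single libraries, and the eIF3 median from -0.22 to 0.032, with the upper value given by leaving out replicate 3. In Yeats2 auxin, the eIF2 median was 0.022 with the correction and -0.038 to 0.019 without single libraries, and the eIF4 median was -0.080 with the correction and -0.074 to 0.057 without single libraries. In the direct comparison the eIF4 median was -0.017 when the filter was set at a mean of 1 CPM. The log2 FCs given for single genes at an unadjusted P under 0.05 kept their sign under every alternative run. Among all 53 members, the GC and length correction turned the sign of 7 in Zzz3 auxin, 10 in Yeats2 auxin and 7 in the direct comparison, of values of 0.22, 0.15 and 0.080 at most in size.

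The replicate numbers do not pair the samples, since deviations of libraries with the same number correlated at -0.17 to 0.20. With the replicate block 0 members were called in each comparison, and the eIF2 median in Yeats2 auxin was 0.065. It also took the eIF3 median in Zzz3 auxin from -0.13 to 0.000073 and the eIF4 median in Yeats2 auxin from 0.042 to -0.020.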

Other observations

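Genes whose symbol fits the pattern but which are not protein coding, or lie on the Y chromosome, were left out of the report, and a few had appreciable counts. Eif2s3y, the Y-linked copy of Eif2s3x, was at 90.6 and 84.7 CPM in Control, at 61.7, 138 and 57.0 in Zzz3 auxin and at 124, 138 and 114 in Yeats2 auxin. It was thus above its X-linked copy, which was below 30 CPM, in all 8 libraries, and the Zzz3 auxin libraries were spread widely.

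The processed pseudogene Eif3s6-ps2, which shares sequence with Eif3e, was at 11.5 and 12.1 CPM in Control, at 6.71, 8.21 and 6.09 in Zzz3 auxin and at 6.69, 6.62 and 6.81 in Yeats2 auxin. All 6 auxin libraries were below both Control libraries. Its log2 FC was -0.75 ± 0.18 (SE) with an adjusted P of 0.072 in Zzz3 auxin and -0.82 ± 0.18 with an adjusted P of 0.081 in Yeats2 auxin, by edgeR, so neither passed the threshold. Eif3s6-ps3, a further copy, overlapped Control.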
